A study of Rattus norvegicus and Bos taurus with 6 samples.

Results

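Msln, Upk3b, Bnc1, Wt1, Lrrn4, Krt19, Pkhd1l1, Gpm6a and Wfdc21 are 9 genes used to mark mesothelial cells, the flat epithelial cells that line the body cavities. They were matched by symbol among the 38697 gene rows of the rat Parse tables, the 25629 rows of the 10x table and the 36075 rows of the cow table. All 9 had a row in the rat Parse tables, 8 had one in the 10x table (Krt19 did not) and 7 had one in the cow table (Msln and Wfdc21 did not), so 6 could be followed in every library. The genes were chosen because their transcripts differed between these libraries in earlier work on the same data, so the levels below describe that choice and are not a test of it.

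The study evaluated a way of isolating nuclei from rat and cow white fat for single-nucleus RNA sequencing. The deposited data comprised 6 libraries with 1 library per condition. Mesenteric perivascular adipose tissue (mesPVAT), the white fat around the mesenteric arteries, was profiled on the droplet platform of 10x Genomics and again with the Parse kit, which barcodes fixed nuclei by splitting and pooling them. Retroperitoneal fat (RP), thoracic aortic perivascular fat (taPVAT), subscapular brown fat (BAT) and cow subcutaneous white fat (sWAT) are each represented by 1 Parse library among the samples analysed here.

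The rat tissue came from male SS/HsdMcwiCrl (Dahl SS) rats and the cow tissue from the flank of a female Holstein cow. All tissue was labelled normal and snap frozen, without a treatment, and the labels used here give no age. The 10x library carried batch 1, the 3' v3 kit and its own nuclei isolation with sorting of stained nuclei. The 5 Parse libraries carried batch 2 and the Evercode WT v3 kit. By the study's methods the 10x and rat Parse libraries were also aligned to different genome builds. Kit, isolation, batch, genome build and animals therefore cannot be told apart between the 10x library and the others. By the study's methods the cows were lactating, and cow samples used more tissue and passed a finer filter that rat samples did not. Species, sex, lactation, depot, preparation and annotation therefore cannot be told apart for the cow.

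Mesothelium is a single layer of cells on a basement membrane that secretes lubricant and can take on a fibroblast-like state after injury. It covers the peritoneum, including the mesentery and the surface of intraperitoneal fat, as well as the pleura and the pericardium. Subcutaneous and subscapular fat lie outside these cavities.

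The libraries held 2297 to 5887 nuclei and 845316 to 16827260 unique molecular identifiers (UMIs, 1 per captured transcript). The median nucleus carried 161 UMIs in the 10x library, 346 in the mesPVAT-labelled Parse library, 213 in the RP-labelled library, 1246 in taPVAT, 1706 in BAT and 3530 in cow sWAT. No cell barcode occurred in more than 1 library. The study's text gives the genes per nucleus of the white rat Parse libraries in the opposite order to the deposited tables, so these libraries are named by their labels. Nuclei whose markers were mainly adipocyte genes made up 36.8% of the 10x library and 23.8%, 6.74%, 56.6%, 66.4% and 10.6% of the Parse libraries in the order above. Intervals below are exact 95% intervals (Poisson for sums, binomial for shares) that cover counting error only, because no condition was replicated and no test between conditions was possible.

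The genes were scattered over the genome and did not form a cluster. In the GRCr8 assembly Msln, Krt19 and Wfdc21 lay on chromosome 10 (15276489 to 15285921, 85576235 to 85580952 and 69125336 to 69131205), and Wt1 and Lrrn4 lay on chromosome 3 (112019721 to 112068454 and 140592303 to 140603986). Upk3b lay on chromosome 12 (26266838 to 26274240), Bnc1 on chromosome 1 (145326881 to 145352534), Pkhd1l1 on chromosome 7 (77505063 to 77679994) and Gpm6a on chromosome 16 (43374385 to 43706461). Gpm6a and Pkhd1l1 were by far the longest, with 332077 and 174932 bases, and nuclear RNA contains unspliced transcripts, so levels are compared between libraries and not between genes. Upk3b and Krt19 each overlapped a long noncoding RNA, and Gpm6a overlapped noncoding genes and a pseudogene, whose reads may be shared.

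Promoter sequences differed sharply within the group. They are shown for 4 of the genes, as RefSeq gives the 250 bases before the start of each gene in GRCr8. Letters run 5′ to 3′ on the gene's strand, with CG dinucleotides in capitals. The windows are chr12:26274241-26274490 for Upk3b (minus strand), chr3:140603987-140604236 for Lrrn4 (minus), chr10:69125086-69125335 for Wfdc21 (plus) and chr1:145352535-145352784 for Bnc1 (minus).
Upk3b: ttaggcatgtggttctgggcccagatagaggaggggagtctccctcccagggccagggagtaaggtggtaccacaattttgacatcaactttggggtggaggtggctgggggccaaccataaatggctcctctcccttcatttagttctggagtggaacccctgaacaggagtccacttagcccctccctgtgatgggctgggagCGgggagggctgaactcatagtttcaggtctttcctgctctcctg
Lrrn4: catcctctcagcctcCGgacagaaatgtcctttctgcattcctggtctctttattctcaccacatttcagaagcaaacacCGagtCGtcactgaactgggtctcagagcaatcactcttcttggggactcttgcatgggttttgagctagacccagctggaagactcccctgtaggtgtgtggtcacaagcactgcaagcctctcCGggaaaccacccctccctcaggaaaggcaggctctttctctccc
Wfdc21: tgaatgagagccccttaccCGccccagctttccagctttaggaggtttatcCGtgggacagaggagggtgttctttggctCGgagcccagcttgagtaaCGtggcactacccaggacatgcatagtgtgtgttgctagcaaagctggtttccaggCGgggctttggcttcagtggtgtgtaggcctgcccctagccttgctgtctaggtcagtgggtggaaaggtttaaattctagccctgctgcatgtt
Bnc1: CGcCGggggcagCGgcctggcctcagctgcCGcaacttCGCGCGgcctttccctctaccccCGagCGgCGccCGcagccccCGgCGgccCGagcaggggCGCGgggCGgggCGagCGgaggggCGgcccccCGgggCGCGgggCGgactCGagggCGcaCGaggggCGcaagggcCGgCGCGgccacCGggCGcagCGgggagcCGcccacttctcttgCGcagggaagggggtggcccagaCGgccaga
The Upk3b, Lrrn4 and Wfdc21 windows had 56.4%, 53.2% and 54.8% G or C and 1, 4 and 5 CG dinucleotides, beside medians of 51.2% and 5 over 33469 rat promoters. Only 7.83% of promoters had fewer CG dinucleotides than Upk3b. The Bnc1 window was 82% G or C with 37 CG dinucleotides, more than in 98.1% of promoters. Of the 9 genes, 6 had a window in the table used, and the window listed for Wt1 lay inside the gene.

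The 6 windows were searched on both strands for short motifs. GGAATG, as bound by TEAD factors, occurs in 12.1% of all promoters. AGATAA, as bound by zinc finger factors such as Gata6, occurs in 10.3%, and TATAAA, the core promoter element, in 12.9%. GTGGGAG, as bound by WT1, occurs in 7.51%, and TGANTCA, as bound by AP-1, in 6.34%. The only match was the reverse of the TEAD-type letters in Lrrn4, 214 bases before the start. The other 5 windows held none of these letters.

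Summed over the genes present, mesothelial marker UMIs were most frequent in 10x mesPVAT, at 3404 counts per 1000000 UMIs (CPM), with an interval of 3302 to 3509. The mesPVAT-labelled Parse library held 526 CPM (492 to 562), the RP-labelled library 323 (286 to 364), taPVAT 252 (238 to 266), cow sWAT 121 (116 to 127) and BAT 120 CPM (111 to 129). Each step down this order was larger than counting error except the last, where the ratio of cow sWAT to BAT was 1.01 (0.932 to 1.10). Parts of 1 library, called sublibraries, could also differ beyond counting error. Those of the mesPVAT-labelled Parse library stood at 602 (552 to 656) and 444 CPM (399 to 493). In sublibrary 1 the RP-labelled library and taPVAT both stood at 286 CPM, and in sublibrary 2 at 371 and 214 CPM. Gpm6a and Pkhd1l1, which are also expressed outside mesothelium, supplied 68.2% of the marker UMIs in the 10x library, 77.7% to 79.6% in the white rat Parse libraries and 89.1% to 93.1% in taPVAT, BAT and cow sWAT. Without them the sum was 1083 CPM in 10x mesPVAT, 107 and 72.2 CPM in the mesPVAT-labelled and RP-labelled libraries, 22.7 in taPVAT, 13.3 in cow sWAT and 8.23 in BAT, an alternative chosen after the data were seen. A summed level does not separate fewer mesothelial nuclei from less of each transcript per nucleus.

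**Figure D1:**
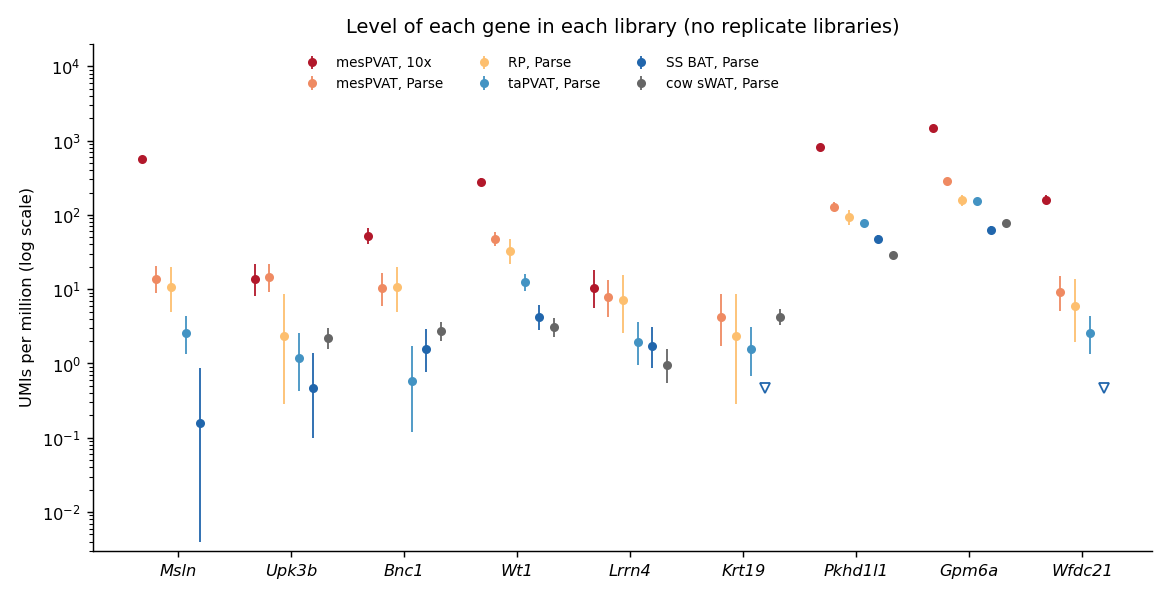
CPM (log scale) for each gene in each of the 6 libraries, with exact 95% Poisson intervals that cover counting error only and open triangles at the level of 3 counts where no UMI was found. The 10x mesPVAT library lies highest for Msln, Bnc1, Wt1, Pkhd1l1, Gpm6a and Wfdc21, whereas its Upk3b and Lrrn4 intervals overlap those of the mesPVAT-labelled Parse library.

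Among the surface proteins, Msln encodes mesothelin, a membrane-anchored glycoprotein by which mesothelial cells are commonly recognised. Msln stood at 566 CPM (525 to 609) in 10x mesPVAT, 13.9 (8.80 to 20.8) in the mesPVAT-labelled Parse library, 10.6 (4.87 to 20.2) in the RP-labelled library, 2.55 (1.36 to 4.36) in taPVAT and 0.158 CPM (0.00401 to 0.882) in BAT. These levels rest on 700, 23, 9, 13 and 1 UMIs. Of neighbours in this order, only the white rat Parse libraries did not differ beyond counting error, at a ratio of 1.30 (0.581 to 3.20). Msln was found in 9.33% of 10x nuclei (549 of 5887) and in 0.661%, 0.321%, 0.406% and 0.0371% of nuclei of the Parse libraries. Every nucleus with at least 200 UMIs was then thinned to 200, and shallower nuclei were left out. This kept 2099 of 5887 nuclei in the 10x library and 1503 of 2805 in the RP-labelled library. The shares were then 6.96%, 0.392%, 0.333%, 0.0739% and 0%, so the deeper taPVAT nuclei no longer exceeded the RP nuclei.

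Upk3b, a uroplakin of mesothelial and urothelial membranes, had a different pattern. It stood at 13.7 CPM (8.002 to 22.0) in 10x mesPVAT and 14.5 CPM (9.28 to 21.6) in the mesPVAT-labelled Parse library, with 17 and 24 UMIs. Its level was 2.37 CPM in the RP-labelled library, 2.20 in cow sWAT, 1.18 in taPVAT and 0.475 in BAT, from 2, 37, 6 and 3 UMIs. No neighbours among the last 4 differed beyond counting error. In the cow, nuclei with an Upk3b UMI had a median of 29044 UMIs against 3470 in the others, so the 1.52% of cow nuclei that were positive were among the most deeply counted ones, and none was positive after thinning to 200 UMIs.

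Lrrn4, a leucine-rich repeat membrane protein, was rare in every library, with 6 to 16 UMIs. It stood at 10.5 CPM in 10x mesPVAT, 7.85 and 7.098 CPM in the mesPVAT-labelled and RP-labelled libraries, 1.96 in taPVAT, 1.74 in BAT and 0.951 in cow sWAT. The one step beyond counting error separated RP fat from taPVAT, at 3.62-fold (1.08 to 11.0).

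Gpm6a, a proteolipid-family membrane glycoprotein best known from neurons, was found in every depot. Its level was 1500 CPM (1432 to 1570) in 10x mesPVAT, 289.7 (264 to 317) in the mesPVAT-labelled Parse library, 157 (132 to 186) in the RP-labelled library, 152 (141 to 163) in taPVAT, 78.9 (74.7 to 83.2) in cow sWAT and 63.6 CPM (57.6 to 70.2) in BAT. RP fat and taPVAT did not differ beyond counting error (1.04-fold, 0.856 to 1.25), and all other neighbours did. Gpm6a was found in 15.5% of 10x nuclei, 7.99% and 4.14% of the white rat Parse nuclei, 14.7% in taPVAT, 8.86% in BAT and 19.98% in cow sWAT. At 200 UMIs per nucleus, in the nuclei that had as many, the shares became 15.2%, 4.19%, 2.99%, 2.51%, 1.00% and 1.83%. The cow went from the highest share to the second lowest.

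Pkhd1l1, a very large receptor-like protein related to fibrocystin, followed the same order except at its lower end. It stood at 822 CPM (772 to 874) in 10x mesPVAT, 129 (112 to 148) in the mesPVAT-labelled Parse library, 93.5 (74.0 to 116) in the RP-labelled library, 77.1 (69.6 to 85.1) in taPVAT, 47.8 (42.6 to 53.5) in BAT and 29.2 CPM (26.7 to 31.9) in cow sWAT. Only RP fat and taPVAT were within counting error of each other (1.21-fold, 0.940 to 1.55). As with Gpm6a, thinning reordered the shares of positive nuclei. Cow sWAT went from 8.58% to 0.479%, and 10x mesPVAT from 11.1% to 10.9% of the 2099 nuclei kept.

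Of the transcription factors, Wt1, the Wilms tumour zinc finger protein that mesothelium keeps from its embryonic origin, fell into 4 levels. It stood at 280 CPM (252 to 312) in 10x mesPVAT, 47.7 (37.8 to 59.4) in the mesPVAT-labelled Parse library, 33.1 (22.0 to 47.9) in the RP-labelled library, 12.4 (9.49 to 15.8) in taPVAT, 4.27 (2.82 to 6.22) in BAT and 3.09 CPM (2.31 to 4.05) in cow sWAT. The white rat Parse libraries did not differ beyond counting error (1.44-fold, 0.925 to 2.30), nor did BAT and cow sWAT (1.38-fold, 0.835 to 2.24). RP fat exceeded taPVAT 2.68-fold (1.65 to 4.25), and taPVAT exceeded BAT 2.89-fold (1.81 to 4.72).

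Bnc1, the zinc finger protein basonuclin of epithelial cells, stood at 52.5 CPM (40.5 to 66.9) in 10x mesPVAT, 10.3 (5.98 to 16.4) in the mesPVAT-labelled Parse library and 10.6 CPM (4.87 to 20.2) in the RP-labelled library. It was lower in cow sWAT, at 2.73 CPM, in BAT, at 1.583 CPM, and in taPVAT, at 0.588 CPM, where 3 UMIs were counted. Neighbours among these 3 libraries did not differ beyond counting error.

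Krt19, a keratin of simple epithelia, gave the least information. Its 0 to 8 UMIs in the rat Parse libraries corresponded to 4.23 CPM in the mesPVAT-labelled Parse library, 2.37 in the RP-labelled library and 1.57 in taPVAT. None was found in BAT, 0 of 2699 nuclei, where the limit of 3 counts allows up to 0.111% of nuclei with a UMI and the exact 95% limit is 0.137%. The cow library held 72 Krt19 UMIs, or 4.28 CPM (3.35 to 5.39), in 42 nuclei with up to 8 UMIs in a single nucleus. Of these UMIs, 51 lay in nuclei whose markers were mainly adipocyte genes, at 12.3 CPM (9.15 to 16.2).

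Wfdc21, a secreted WAP-domain protein, stood at 159.99 CPM (138 to 184) in 10x mesPVAT, 9.05 (5.07 to 14.9) in the mesPVAT-labelled Parse library, 5.91 (1.92 to 13.8) in the RP-labelled library and 2.55 CPM (1.36 to 4.36) in taPVAT. In BAT 0 of 2699 nuclei had a UMI, with the same limits as for Krt19. Neighbours among the 3 Parse libraries with UMIs did not differ beyond counting error.

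The 10x and Parse libraries of mesPVAT were set against each other. A gene counted as higher when its CPM was at least 2 times that in the other library, with at least 10 UMIs in all. By this rule 6 of 8 genes were higher in the 10x library and 0 lower, where 20.6% of the 14690 genes compared were higher and 38.4% lower. The median ratio of the 8 genes was 5.53, beside 0.777 over all genes. The rule that chose the genes used this contrast, so the counts are a description.

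The ratios were uneven. Msln exceeded its Parse level 40.7-fold (26.9 to 64.7) and Wfdc21 17.7-fold (10.5 to 32.2). Pkhd1l1, Wt1, Gpm6a and Bnc1 lay together between 5.12-fold and 6.36-fold. The ratio was 1.34 for Lrrn4 (0.572 to 3.13) and 0.948 for Upk3b (0.478 to 1.84), and the Upk3b interval lay below those of the 6 higher genes. With the RP-labelled library in place of the mesPVAT-labelled Parse library, 7 of 8 genes were higher, beside 26% of 13898 genes. Msln was then 53.1-fold higher (27.8 to 117), and Upk3b 5.81-fold higher (1.38 to 51.8, against 2 UMIs). Whether Upk3b is called higher in the 10x library thus depends on which label is right.

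Other mesothelial genes divided in the same contrast. Of a list of 24 further genes, 20 had enough UMIs. Higher in the 10x library were 10 of them, beside the 20.6% of all genes given above. Among them were the transcription factor Gata6 (8.72-fold), the matrix protein Efemp1 (7.92-fold), the keratin Krt7 (6.36-fold) and the retinoic acid enzyme Aldh1a2. Lower were 4, beside 38.4% of all genes. They were calretinin (Calb2) with 0 UMIs against 18, the lectin Itln1 with 0 against 20, E-cadherin (Cdh1) with 5 against 42 and the transcription factor Gata4 with 1 against 27. Against a limit of 3 counts, the Parse level was at least 4.48-fold higher for Calb2 and at least 4.98-fold higher for Itln1. All 4 were also found in the RP-labelled library, with 25, 28, 36 and 21 UMIs. They were lower in the 10x library than there too, as were 37% of all genes compared. Whether gene models, capture or preparation had a part in this was not tested.

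**Figure D2:**
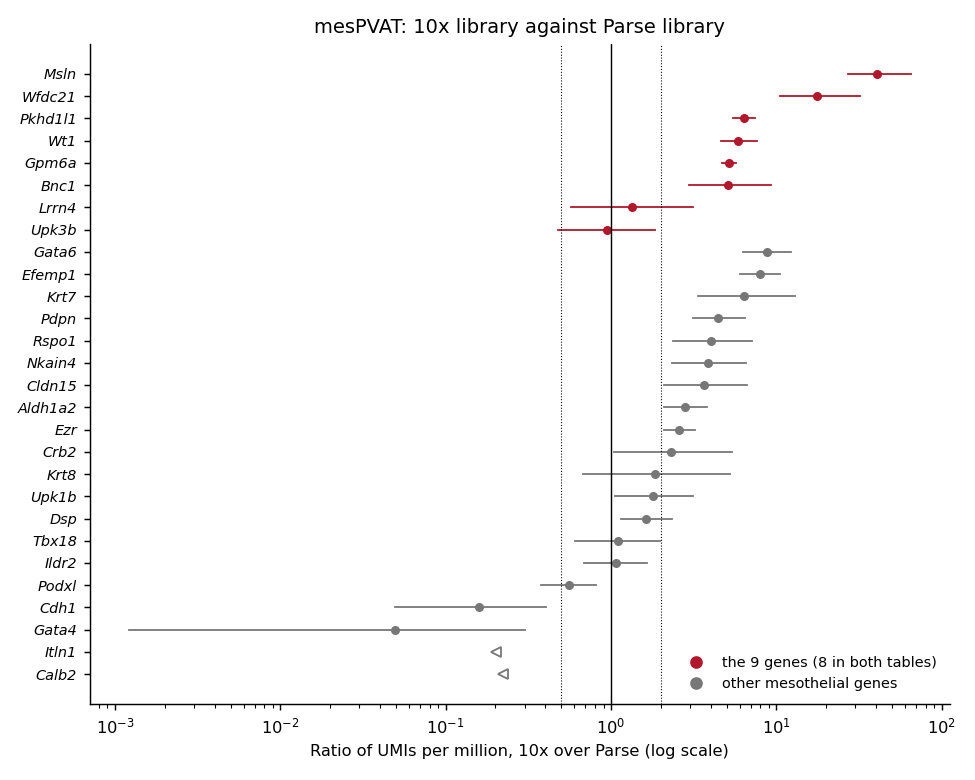
Ratio of CPM in the 10x library over the mesPVAT-labelled Parse library (log scale) for the mesothelial marker genes (red) and other mesothelial genes (grey), with 95% counting intervals, dotted lines at 2-fold either way and open triangles for upper limits where the 10x library had no UMI. Msln lies furthest to the right at 40.7, Upk3b and Lrrn4 lie near 1, and Cdh1, Gata4, Itln1 and Calb2 lie to the left of the lower line.

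Visceral fat is bordered by peritoneum and subscapular fat is not, while taPVAT comes from the chest, where the pleura is also mesothelium. The Parse libraries set visceral against brown fat within 1 kit and batch. In the study's protocol, however, taPVAT nuclei were centrifuged at a lower speed than those of rat white fat. Depot and that step therefore cannot be told apart. A gene counted as higher when its lower visceral level (labelled mesPVAT or RP fat) was at least 2 times its higher brown level (taPVAT or BAT), which does not depend on which white label is right. This held for 6 of 9 genes, and for 50.6% of 28177 genes, with 0 of 9 and 4.54% in the other direction. The share of the marker genes thus lay near that of genes in general and says nothing particular about them. Their median ratio was 2.32, beside 2.03 over all genes. With the median gene set equal between libraries, 4 of 9 genes remained past the limit, beside 45.2% of genes.

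Within the group the contrast was largest for Bnc1, whose lower visceral level was 6.48 times its higher brown level. Msln followed at 4.18, Lrrn4 at 3.62, Wt1 at 2.68, Wfdc21 at 2.32 and Upk3b at 2.01. Gpm6a, at 1.04, and Pkhd1l1, at 1.21, did not separate the depots, and neither did Krt19, at 1.51. Of the other mesothelial genes 16 of 21 were higher in the visceral libraries, beside the 50.6% of all genes given above, among them Cdh1 (6.46), Upk1b (4.72), Krt7 (4.62) and Itln1 (4.398).

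Against cow sWAT, a subcutaneous depot of another species, 4 of 7 genes were higher in both visceral rat Parse libraries, beside 29.7% of the 14602 symbols shared, and 0 of 7 were lower, beside 10.4%. Wt1 was 10.7-fold, Lrrn4 7.46-fold, Bnc1 3.75-fold and Pkhd1l1 3.20-fold higher, taking the lower visceral level each time. Gpm6a lay just inside the limit, at 1.995. Upk3b, at 1.08, and Krt19, at 0.553, were not separated. Of the other mesothelial genes 11 of 19 were higher, including Upk1b (6.29), Krt7 (4.20), Calb2 (3.97) and Gata4 (3.92).

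Between the white rat Parse libraries, 1 of the 8 genes with at least 10 UMIs was higher in the mesPVAT-labelled Parse library, beside 6.44% of 24058 genes, and 0 were lower, beside 13.1%. The gene was Upk3b, at 6.12-fold (1.52 to 53.5), from 24 UMIs against 2. Gpm6a was 1.84-fold (1.52 to 2.25) and Pkhd1l1 1.38-fold (1.06 to 1.81) higher, short of the limit, while the intervals of the other 5 genes included 1. Calb2, Itln1 and Crb2, a polarity protein, were instead higher in the RP-labelled library, at 2.72-fold, 2.74-fold and 3.21-fold. They were 3 of the 20 other mesothelial genes compared, beside 13.1% of all genes, and 0 of the 20 were higher in the mesPVAT-labelled Parse library. That share lay near that of genes in general and says nothing particular about the list.

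The contrast of 10x mesPVAT with the brown libraries crosses kit and depot, and shares its libraries with the contrasts above. All 8 genes measured were higher, beside 17.8% of 15701 genes, from Lrrn4 at 5.36-fold to Msln at 222-fold. Lrrn4 and Upk3b, which did not separate the 10x library from the mesPVAT-labelled Parse library, were 5.36-fold and 11.7-fold higher here. Among the other mesothelial genes 15 of 20 were higher, beside the same 17.8%. Gata4 alone was lower, at 0.137-fold, beside 19.4% of all genes. Calb2 and Itln1, with 0 UMIs in the 10x library, and Cdh1 and Podxl were not called.

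In which nuclei the transcripts lay was read from 7 marker lists of other cell types, none of which holds the genes. A nucleus took the class with most marker UMIs if these were at least 2 and not tied. Such shallow classes are coarse: 49.4% of 10x nuclei took none. No mesothelial class was formed, because the genes themselves would have defined it.

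The level of Msln in 10x mesPVAT was highest in nuclei without a class (973 CPM, 884 to 1068) and in nuclei classed as adipose stem and progenitor cells (ASPC; 754 CPM, 622 to 906). It was lower in adipocyte nuclei (248 CPM, 208 to 293) and in immune nuclei (129 CPM, 35.02 to 329, from 4 UMIs). By number, 439 Msln UMIs lay in unclassed, 136 in adipocyte and 114 in ASPC nuclei. Immune nuclei, which should lack it, were positive in 3.77% (1.04% to 9.38%) at a median of 243 UMIs, and unclassed nuclei in 11.9% (10.8% to 13.2%) at a median of 128 UMIs. The unclassed share lay above the immune share at a lower depth. Whether the UMIs in immune nuclei were stray transcripts was not tested. Wt1 and Wfdc21 stood highest in ASPC nuclei, at 549 and 337 CPM, with overlapping intervals in unclassed nuclei at 439 and 250.4 CPM, and were lower in adipocyte nuclei, at 117 and 58.3 CPM. In immune nuclei Wt1 had 2 UMIs and Wfdc21 none.

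In the mesPVAT-labelled Parse library, Upk3b lay mainly in ASPC nuclei, with 18 of its 24 UMIs there (54.6 CPM, 32.3 to 86.2). Msln stood at 30.3 CPM in ASPC nuclei (14.5 to 55.7) and 3.82 CPM in adipocyte nuclei (0.462 to 13.8). In the RP-labelled library 1 of 2 Upk3b UMIs and 2 of 9 Msln UMIs lay in ASPC nuclei, and no Msln UMI in adipocyte nuclei. In taPVAT 10 of 13 Wfdc21 UMIs and 7 of 13 Msln UMIs fell in ASPC nuclei, 10.3% of that library. Among taPVAT endothelial and immune nuclei, 375 and 169 in number, none had a Msln, Upk3b, Bnc1 or Wfdc21 UMI. Wt1, however, had 3 UMIs in each of these classes, and Krt19 had 1 in the endothelial class. There 3 counts correspond to 6.44 and 19.2 CPM, above the whole-library level of each absent gene, so their absence says little. In BAT the few UMIs of Msln, Upk3b and Bnc1 lay in adipocyte or unclassed nuclei, with none in the 103 ASPC nuclei. In those ASPC nuclei 3 counts correspond to 20.4 CPM, and Wt1 had 2 UMIs.

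Pkhd1l1 stood apart because it also reached high levels in endothelial classes of some libraries. Nuclei classed as lymphatic endothelium held 2177 CPM (1562 to 2953) in 10x mesPVAT, 2389 CPM (1634 to 3372) in taPVAT and 3147 CPM (2533 to 3863) in cow sWAT, where all 11 such nuclei were positive. In the white rat Parse libraries such nuclei stood lower, at 146 CPM (3.69 to 811, 1 UMI in 15 nuclei) in the mesPVAT-labelled and 217 CPM (44.7 to 634, 3 UMIs in 18 nuclei) in the RP-labelled library. The 2 such nuclei of BAT held 11 UMIs. The other endothelial class, whose marker list was not limited to blood vessels, held 2936 CPM (2391 to 3567) in the 10x library. It held 253 (210 to 304) in taPVAT and 146 CPM (119 to 176) in BAT. The mesPVAT-labelled Parse library stood at 37.9 (15.2 to 78.1) and cow sWAT at 17.3 CPM (13.3 to 22.0) in this class. ASPC nuclei stood higher in both, at 252 (200 to 312) and 26.3 CPM (22.4 to 30.7). In taPVAT the ASPC level of 272 CPM (221 to 330) overlapped that of this class, as did the mural level of 115 CPM (80.2 to 159) in BAT. In 10x mesPVAT ASPC nuclei were lower, at 1005 CPM (852 to 1178). In the cow, Gpm6a was also concentrated in lymphatic nuclei, at 1694 CPM (1253 to 2240), beside 58.0 CPM in nuclei of the other endothelial class. Gpm6a in 10x mesPVAT was instead highest in ASPC nuclei, at 3876 CPM (3568 to 4203). In BAT and taPVAT most Gpm6a UMIs, 358 of 402 and 561 of 774, came from adipocyte nuclei, the largest class there, at 71.9 and 147 CPM. By level, Gpm6a in taPVAT was higher in ASPC nuclei, at 296 CPM (243 to 356), and in unclassed nuclei, at 317 CPM (234 to 421). In BAT the ASPC level, 74.7 CPM (37.3 to 134), was close to that of adipocyte nuclei.

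**Figure D3:**
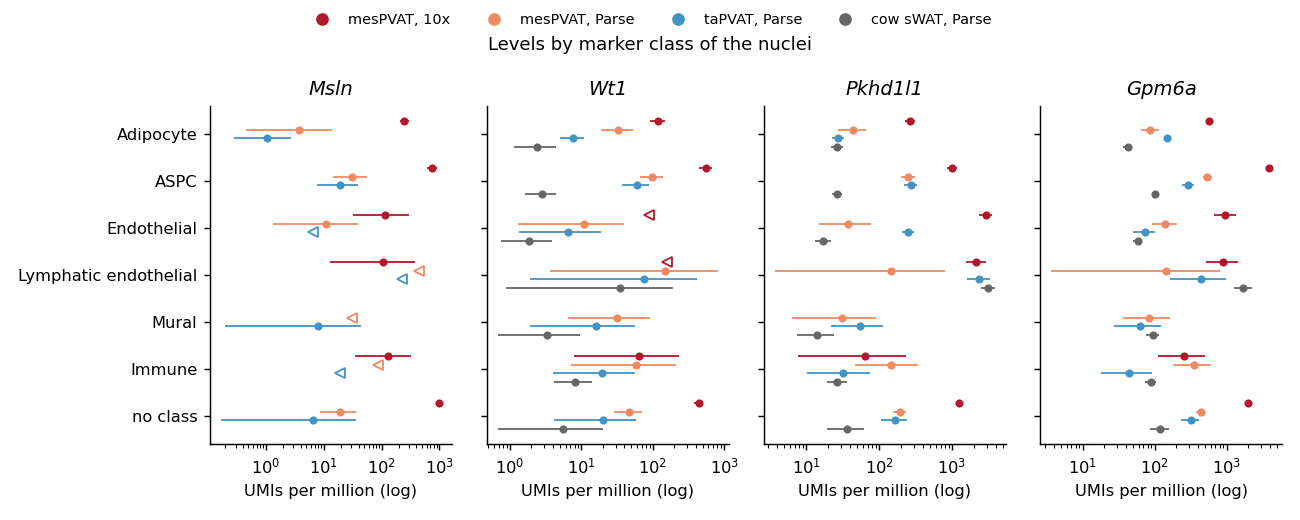
CPM (log scale) of Msln, Wt1, Pkhd1l1 and Gpm6a in nuclei grouped by the markers of other cell types, for 4 libraries, with 95% Poisson intervals and open triangles at 3 counts where a class had no UMI. Msln and Wt1 lie highest in ASPC and unclassed nuclei of 10x mesPVAT, whereas Pkhd1l1 reaches 2177 to 3147 CPM in lymphatic endothelial nuclei of 10x mesPVAT, taPVAT and cow sWAT.

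Several of the transcripts were often found in 1 nucleus. At least 2 of the genes were found in 607 nuclei of 10x mesPVAT (10.3%, 9.55 to 11.1), 77 of the mesPVAT-labelled Parse library (2.54%), 12 of the RP-labelled library (0.428%), 64 of taPVAT (2.36%), 28 of BAT (1.04%) and 142 of cow sWAT (6.18%). At least 3 were found in 186, 31, 2, 16, 2 and 25 nuclei. The 607 nuclei of 10x mesPVAT had a median of 204 UMIs, beside 161 over all nuclei of that library.

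Depth moves these shares. After thinning to 200 UMIs, at least 2 genes were found in 10.2% of 10x nuclei (8.98 to 11.6), 1.18% of mesPVAT-labelled Parse nuclei (0.795 to 1.67), 0.266% of RP-labelled nuclei, 0.480% of taPVAT, 0.0371% of BAT and 0.0871% of cow sWAT. The 10x share covers only the 2099 of 5887 nuclei that had 200 UMIs. Thinning to 100 UMIs, which kept 5135 of them, gave 5.06% there. Cow sWAT fell from the second highest share to 2 of 2297 nuclei. Its 142 nuclei with at least 2 genes had a median of 15347 UMIs, and its 5 nuclei with at least 4 genes had 31441 to 143972 UMIs. The 11 taPVAT nuclei with at least 4 genes were of ordinary depth, with 565 to 6760 UMIs, and 4 of them had at least 6 of the genes. Within the 10x library the share with at least 2 genes was 7.81% below 200 UMIs, 12.4% from 200 to 500 and 31.1% from 500 to 2000 UMIs. The summed level of the genes also differed between these ranges, at 3376, 2758 and 4385 CPM. What set the shares apart was not tested.

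**Figure D4:**
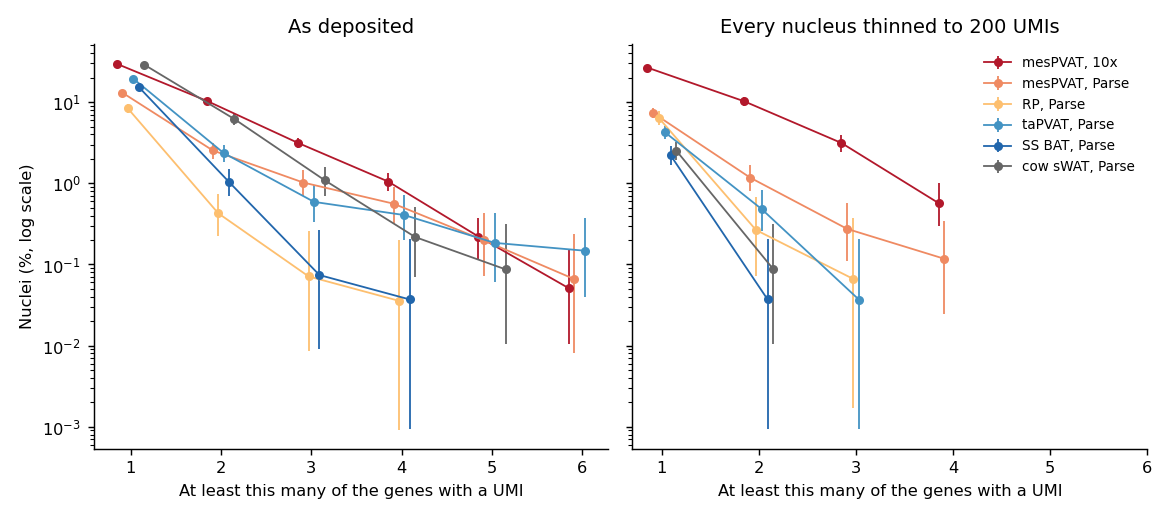
Percentage of nuclei (log scale) with UMIs of at least the given number of the genes, with exact 95% binomial intervals for each library. The left panel shows nuclei as deposited. The right panel shows nuclei with at least 200 UMIs thinned to 200, which leaves out shallower nuclei. The cow line lies beside the 10x line for 1 gene on the left and among the lowest lines on the right, where the 10x line lies at 10.2% for 2 genes.

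Pairs of the genes were also counted. In 10x mesPVAT 27 of 28 pairs were seen together, and 25 were more frequent in nuclei with the first gene than in other nuclei of the same range of UMIs. Gpm6a was found in 42.1% (37.9 to 46.3) of nuclei with Msln and in 12.8% of nuclei without. For Wfdc21 the corresponding shares of Gpm6a were 56.9% (48.6 to 64.8) and 14.4%, and those of Wt1 25.5% (18.8 to 33.2) and 3.82%. Perilipin (Plin1), the adipocyte lipid droplet protein, went the other way, in 6.01% of nuclei with Msln and 11.9% of those without. The endothelial adhesion molecule Pecam1 was found in 6.30% of nuclei with Pkhd1l1 and 2.02% of those without, but in 0.654% of nuclei with Wfdc21 and 2.55% without.

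**Figure D5:**
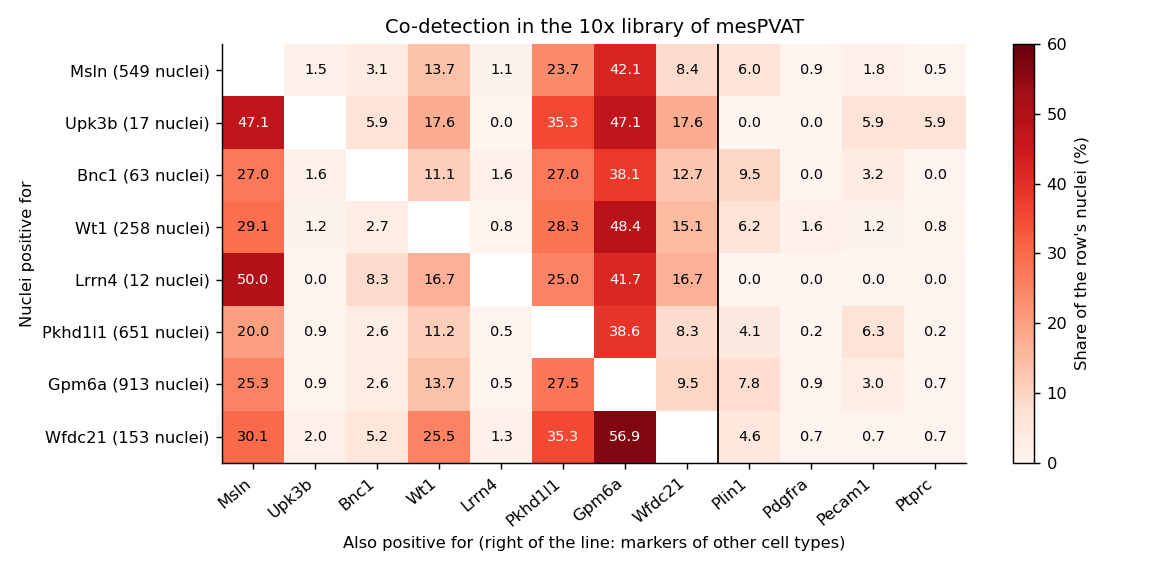
Percentage of 10x mesPVAT nuclei positive for the gene of the row that were also positive for the gene of the column, with markers of adipocytes, ASPC, endothelium and immune cells to the right of the line. Gpm6a was found in 38.1% to 56.9% of the nuclei of every other row, whereas Pdgfra and Ptprc stayed at or below 5.9%.

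Pairs in the rat Parse libraries rest on small sets of nuclei. In the mesPVAT-labelled Parse library, 14 of 20 nuclei with Msln also had Gpm6a and 12 had Pkhd1l1, beside 7.58% and 4.06% of nuclei without Msln, and none of the 20 had Plin1. Of its 13 nuclei with Wfdc21, 12 had Gpm6a and 10 had Pkhd1l1. In the RP-labelled library 3 of 9 nuclei with Msln had Gpm6a and 0 had Pkhd1l1, while of its 5 nuclei with Wfdc21, 1 had Gpm6a and 2 had Pkhd1l1. All 9 taPVAT nuclei with Wfdc21 had both Gpm6a and Pkhd1l1, found in 14.4% and 4.59% of the others, and 5 of the 9 had Msln. In taPVAT 43.6% of nuclei with Pkhd1l1 also had Pecam1, against 18.8% of those without. Of 36 pairs, 34 were seen together in the mesPVAT-labelled Parse library and 33 in taPVAT, but 11 in the RP-labelled library and 10 in BAT, where UMIs were few. In cow sWAT all 21 pairs were seen together, 14 of them more often within the same range of UMIs.

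Nuclei with at least 3 of the genes were compared with nuclei with none for the marker lists of other cells. In 10x mesPVAT adipocyte markers stood at 1836 CPM (1549 to 2160) in the 186 nuclei with at least 3 genes and at 10758 CPM (10535 to 10985) in the 4142 with none, immune markers at 139 and 661 CPM, and endothelial markers at 88.6 and 492 CPM. ASPC markers were similar, at 3115 (2738 to 3529) and 2913 CPM (2798 to 3032). Of the 186 nuclei, 117 had no class, 47 were classed as ASPC, 22 as adipocyte and 0 as endothelial, lymphatic, immune, mural or Schwann. In the mesPVAT-labelled Parse library the 31 such nuclei held 985 CPM of adipocyte markers against 4548 CPM in nuclei with none and 676 against 1310 CPM of endothelial markers. Their immune markers, at 591 CPM (460 to 748) against 517 (478 to 558), did not differ beyond counting error, and their lymphatic markers were higher, at 368 (266 to 496) against 215 CPM (190.5 to 242). Of these 31 nuclei, 2 had more than 15000 UMIs, up to 41374, beside a median of 918. The summed marker levels of the 31 therefore depend heavily on those 2 nuclei. In taPVAT the 16 such nuclei held 5152 against 8626 CPM of adipocyte and 176 against 532 CPM of immune markers. In cow sWAT the 25 such nuclei held more adipocyte markers, at 3129 against 2310 CPM, and more immune markers, at 1228 against 898 CPM. ASPC markers, at 5144 against 3610 CPM, and lymphatic markers, at 193 against 78.0 CPM, were also higher there. Endothelial markers were lower, with intervals of 926 to 1041 against 2134 to 2199 CPM, and so were mural markers, at 390 against 689 CPM. The intervals of Schwann markers overlapped. These 25 cow nuclei had a median of 31441 UMIs, and 19 of them had more than 15000. The 2 such nuclei of the RP-labelled library held 1 UMI of adipocyte markers. Of the taPVAT nuclei 10 of 16 were classed as ASPC.

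Genes outside the lists with the same pattern were sought in 10x mesPVAT. The likeness used was the ratio of CPM in the 607 nuclei with at least 2 of the genes to CPM in the 4142 with none, after 1 UMI was added to each sum, for genes found in at least 10% of the former with at least 20 UMIs. The 10 leading genes were Fras1, ENSRNOG00000063993, Gcnt2, Ror1, Flrt2, Ppp2r2b, Cdh11, Ephb1, Cobl and Flt3, with ratios of 9.93 to 13.5. Fras1, an extracellular matrix protein of epithelial basement membranes, stood at 2237 against 164 CPM and was found in 31.1% against 2.82% of nuclei. Ror1, a receptor of Wnt5a, was found in 34.9% against 3.94%, and Cdh11, a mesenchymal cadherin, in 21.3% against 2.20%.

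The same 10 genes were then looked up elsewhere, where 9 had a row. For genes with at least 10 UMIs in the nuclei compared, it was counted whether the interval of the ratio, without the added UMI, lay above or below 1. In the mesPVAT-labelled Parse library, where 77 nuclei had at least 2 of the marker genes, it lay above 1 for 9 of 9, beside 11.5% of the 18898 genes counted, with 0 of 9 and 6.03% below. In taPVAT, where 64 had, it lay above 1 for 8 of 9, beside 4.25% of 17133, with 0 of 9 and 2.4% below. In BAT, where 28 had, it lay above 1 for 2 of 9 and below for 1, beside 5.3% above and 2.13% below of 17491. In cow sWAT, where 142 had, it lay above 1 for 2 of 9 and below for 1, beside 16.4% above and 6.39% below of 21740. In the RP-labelled library, where 12 nuclei had at least 2, it lay above 1 for 0 of 9, beside 1.54% of 15345, with 0 of 9 and 0.0391% below. Median ratios with the added UMI were 3.22 in the mesPVAT-labelled Parse library, 3.77 in taPVAT, 2.55 in the RP-labelled library, 1.62 in BAT and 1.01 in cow sWAT. The RP-labelled value rests on 12 nuclei, where the added UMI by itself raises ratios built on few UMIs. Cdh11 reached 7.32-fold (4.98 to 10.8) in the mesPVAT-labelled Parse library, from 37.7% against 2.13% of nuclei, and 3.32-fold (0.668 to 10.2) in the RP-labelled library from 3 UMIs. Fras1 reached 5.13-fold (3.46 to 7.48) in taPVAT. Nuclei with more than 15000 UMIs weigh heavily in these sums. They numbered 3 of the 77 in the mesPVAT-labelled Parse library, 1 of 64 in taPVAT, 4 of 28 in BAT and 72 of 142 in cow sWAT.

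The other mesothelial genes with at least 10 UMIs were counted in the same way. The interval lay above 1 for 14 of 15 in 10x mesPVAT, beside 13.5% of 9486 genes, and below 1 for 0, beside 12%. It lay above 1 for 11 of 18 in the mesPVAT-labelled Parse library, beside 11.5% of all genes, and for 10 of 18 in taPVAT, beside 4.25%. In BAT it lay above 1 for 2 of 15, beside 5.3%, and in the RP-labelled library for 0 of 17, beside 1.54%. It lay below 1 for 0 in each of these libraries, beside 6.03%, 2.4%, 2.13% and 0.0391% of all genes. In cow sWAT it lay above 1 for 2 of 17, beside 16.4% of all genes, and below 1 for 3, beside 6.39%. Desmoplakin (Dsp), which anchors keratin at desmosomes, was 10.4-fold higher (5.55 to 20.5) in the co-detecting nuclei of the 10x library, 7.29-fold (4.04 to 13.1) in the mesPVAT-labelled Parse library and 10.4-fold (5.60 to 18.9) in taPVAT. Its ratio in cow sWAT was 0.986 (0.518 to 1.81), and in the RP-labelled library 1 UMI was found in such nuclei. Ezrin (Ezr), a linker of microvilli to actin, was 8.54-fold, 4.53-fold and 3.56-fold higher in these rat libraries, while its ratio in cow sWAT was 0.731 (0.645 to 0.827).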

How the data were processed

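For each library the authors deposited UMI counts per gene and barcode called as a nucleus, without normalization. The authors made the 10x counts with Cell Ranger 7.1.0 and the Parse counts with split-pipe, aligned to GRCr8 or, for the cow, ARS-UCD1.3. Rnor_6.0 is named for the 10x library in the supplementary methods. The 2 Parse sublibraries are joined in each table. The doublet calls by scDblFinder and the limits on UMIs, genes and mitochondrial reads in the study's methods came after the deposited tables, which still hold nuclei with up to 162490 UMIs.

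Counts were summed over all deposited nuclei and scaled to CPM, with Python 3.11.15, numpy 2.4.6, scipy 1.17.1, pandas 2.3.3 and matplotlib 3.10.9. Total UMIs per library ranged from 845316 to 16827260, so 3 counts corresponded to 2.42 CPM in the 10x library, 1.81, 3.55, 0.588 and 0.475 CPM in the rat Parse libraries (mesPVAT, RP, taPVAT, BAT) and 0.178 CPM in the cow. A sum of 0 was set to 3 counts per library in ratios. Rat genes were joined by Ensembl identifier and cow genes by symbol. Intervals are exact at 95%, cover counting error only, and treat UMIs as independent molecules. Thinning drew 200 UMIs without replacement (seed 39) from each nucleus that had as many, which left 2099, 2552, 1503, 2708, 2699 and 2297 nuclei in the order 10x mesPVAT, Parse mesPVAT, RP, taPVAT, BAT and cow. Doublets were not removed here and no doublet caller was run. Scripts were tested on simulated data. Samples were grouped by their labels. No test between conditions was made, as each has 1 library. Promoter sequences are from RefSeq (GRCr8).

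The marker genes, the 24 other mesothelial genes and the 50 class markers were chosen with earlier results of these data known. Named genes are these lists and the 10 genes outside them with the largest ratio in co-detecting 10x nuclei. Alternatives covered nuclei filters, sublibraries, scaling, count minimum, ratio, gene subsets and thinning.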

Additional observations from a re-analysis of the deposited data

How the results depend on the processing

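The count of marker genes called lower was 0 in every comparison under every alternative run, beside 0.937% to 44.9% of all genes. The order of libraries did change: cow sWAT and BAT, at 121 and 119.7 CPM, changed places in the summed level without Gpm6a, and the cow share of nuclei fell from the second highest on thinning. Upk3b, which was not called between the mesPVAT libraries (0.948), was 5.81-fold higher in the 10x library when the RP-labelled library took the place of Parse mesPVAT. No paired analysis was possible because each condition has 1 library. Where a value moved beyond its counting interval the cause was not tested, apart from alternatives that leave out genes, nuclei or UMIs by construction. Values follow the order 10x mesPVAT, Parse mesPVAT, RP, taPVAT, BAT and cow.

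For the summed level, leaving out Gpm6a gave 1905, 237, 166, 99.8, 56.0 and 42.5 CPM, and leaving out Gpm6a and Pkhd1l1 gave 1083, 107, 72.2, 22.7, 8.23 and 13.3 CPM. The 6 genes of every table gave 2679 CPM in the 10x library, and nuclei with at least 500 UMIs gave 5153 CPM there. Scaling without the most abundant gene and mitochondrial genes gave 3520 CPM in the 10x library, 287 in taPVAT, 137 in BAT and 137 in the cow. The study's limits on nuclei (100 to 15000 UMIs, at most 4500 genes and 3% mitochondrial UMIs) gave 129 CPM in the cow. Sublibraries 1 and 2 alone gave 602 and 444 CPM in Parse mesPVAT, 286 and 214 CPM in taPVAT and 128 and 115 CPM in the cow, and sublibrary 2 gave 371 CPM in RP.

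For the share with at least 2 genes, requiring 3 gave 3.16%, 1.02%, 0.0713%, 0.591%, 0.0741% and 1.09%. Leaving out Gpm6a gave 5.08%, 1.16%, 0.214%, 0.591%, 0.222% and 1.65%, and leaving out Pkhd1l1 as well gave 2.73%, 0.594%, 0.107%, 0.406%, 0.0741% and 0.566%. The 6 genes of every table gave 6.27% in the 10x library. Thinning to 200 UMIs gave 1.18% in Parse mesPVAT, 0.480% in taPVAT, 0.0371% in BAT and 0.0871% in the cow, and thinning to 100 UMIs gave 5.06%, 0.627%, 0.0766%, 0.295%, 0% and 0.0435%. Nuclei with at least 500 UMIs gave 32.1% in the 10x library, 5.23% in Parse mesPVAT and 0.789% in RP. The study's limits gave 2.97% in the cow. Sublibraries 1 and 2 gave 0.207% and 0.914% in RP.

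At a ratio of 4, 2 of 9 genes instead of 6 separated the visceral from the brown libraries, beside 32.3% of all genes. From the cow 2 of 7 instead of 4 separated them, beside 13.8%. With the median gene set equal, 2 of 8 genes instead of 1 were higher in Parse mesPVAT than in RP, beside 10.4% of all genes. That scaling shifted levels by up to -0.38 on the log2 scale. In every other alternative the counts stayed within 1.5 times the reported count. The subsets without Pkhd1l1, the 6 genes, thinning to 100 UMIs and the exchange of the white labels were chosen after seeing the data.

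Lrrn4 had at most 16 UMIs in any library, and Krt19 in the rat, Wfdc21, Msln, Upk3b and Bnc1 had 24 or fewer in every rat Parse library, so their intervals are wide and small differences were not detectable. The spread between animals is unknown.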

Other observations

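Cingulin (Cgn), a tight junction protein of epithelia, was not in any list and was chosen after its values were seen. In taPVAT it had 39 UMIs in the 64 nuclei with at least 2 of the marker genes and 9 UMIs in the 2180 nuclei with none, a ratio of 59.9 (28.5 to 141). In the mesPVAT-labelled Parse library the ratio was 13.4 (7.15 to 25.9), from 30 and 17 UMIs, and in 10x mesPVAT it was 11.4 (5.54 to 25.4), from 29 and 11 UMIs. In the RP-labelled library it was 17.7 (3.21 to 65.7), from 3 UMIs in 12 nuclei and 12 UMIs. The ratio in cow sWAT was 1.69 (0.954 to 2.97), and BAT had no Cgn UMI in its 28 such nuclei.

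The sublibraries of 1 library were also compared. In the mesPVAT-labelled Parse library, nuclei with at least 3 of the genes made up 1.35% of sublibrary 1 (22 nuclei) and 0.644% of sublibrary 2 (9 nuclei), with overlapping intervals of 0.848% to 2.04% and 0.295% to 1.22%. In the RP-labelled library, sublibrary 2 had a median of 326 UMIs per nucleus against 163 in sublibrary 1 and held both nuclei with at least 3 of the genes. Among the 3 first-round wells of taPVAT, the summed level was 309 CPM in 1 well and 217 and 216 CPM in the others.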
